A study of Macaca fascicularis with 8 samples.

Results

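The regions described here are stretches of the cynomolgus monkey genome in which accessible chromatin was called in colon, kidney and the male liver, and in none of heart, lung, spleen and uterus. They were chosen by merging the peak lists of these 7 organs wherever peaks overlapped by at least 1 bp. This gave 245443 regions from 607584 peaks, of which 3081 (1.26%) had the sought pattern. The peak calls of the 7 libraries thus selected the regions, and their presence in colon, kidney and male liver is not a finding. The peak list of the female liver was left out of the selection and served as a check.

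The study profiled single-cell chromatin accessibility (scATAC-seq) in 8 libraries from 7 organs of normal adult cynomolgus monkeys (Macaca fascicularis), a non-human primate used as a laboratory model. Colon, heart, lung, uterus and 1 liver library came from a female animal, and kidney, spleen and the other liver library from a male animal. No animal was treated, and every organ other than liver had 1 library, so organ, animal and library cannot be told apart, and no test between organs was made. Kept barcodes, those with at least 1000 counts in peaks, numbered 12404 in colon, 9724 in kidney and 11935 in the male liver, but 728 in the female liver, and carried 110748462, 40995276, 92100566 and 1978404 counts, respectively. Between 17 and 379 barcodes recurred in each of the 28 pairs of libraries. Leaving out every barcode found in another library gave 0.925%, 2.25%, 2.48% and 0.704% for the shares of counts and 7.60-, 1.90-, 4.48- and 10.6-fold for the cluster ratios given for colon, kidney, male liver and female liver below. With the clusters picked again without these barcodes, the male liver ratio was 3.84, against 4.41 before, on chromosomes not used for picking.

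In scATAC-seq, the Tn5 transposase cuts DNA where nucleosomes are displaced, as at promoters and enhancers. Enhancers in particular are open in some cell types and not in others. Colon, kidney and liver are all rich in epithelium, namely colonocytes, tubule cells and hepatocytes, which take up, transport and metabolize solutes, whereas spleen is largely made up of blood cells. This is background: the peaks were not joined to genes, so the cell types of the clusters below were not tested and the clusters go by number.

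Among the 35 sets of exactly 3 organs, colon with kidney and male liver held the most regions. The 3081 regions were close to the 3024 of colon, lung and spleen, and more than 2-fold as many as the 1419 of kidney, male liver and lung. As a share of the shortest of the 3 lists, colon, lung and spleen had more (3.83%) than colon, kidney and male liver (3.03%). The lead over the second set was small, and the order depended on the lists used. With an overlap of at least 50% of the shorter peak the set held 3028 regions and ranked 2, and with the female liver in place of the male liver it held 2520 and ranked 2. Restricted to peaks seen in 1% of barcodes or more, it held 883 regions and ranked 6, and restricted to the 50000 peaks with the most counts of each library it held 652 and ranked 4.

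**Figure D1:**
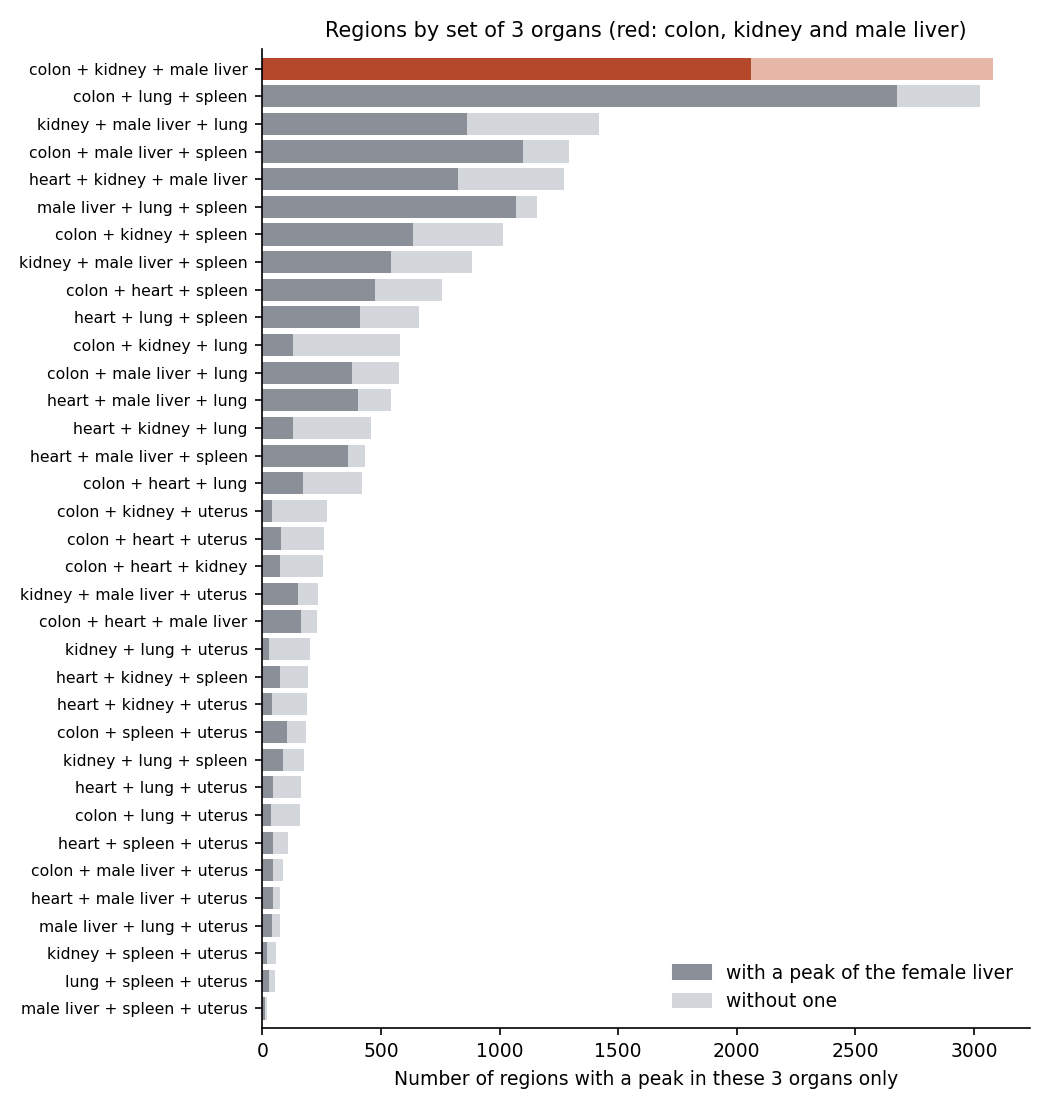
Number of regions with a peak in exactly the 3 organs named, for all 35 sets; the darker part of each bar counts regions that also had a female liver peak. Colon, kidney and male liver (red) held 3081 regions, 2062 of them with a female liver peak, next to 3024 for colon, lung and spleen.

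A peak in all of colon, kidney and male liver was usually joined by other organs. Of the 39476 regions called in all 3, the 3081 without any other organ made up 7.80%, while 3584 had 1 further organ, 5151 had 2, 7456 had 3 and 20204 had all 4. Where 1 organ was added, it was lung in 1435 regions, spleen in 1404, heart in 510 and uterus in 235. Uterus had the shortest list (37159 peaks) and the male liver the longest of the 7 (110993), and a region without a peak is not thereby closed. The deposited matrices count only within a library's own peaks, so the level of the selected regions in heart, lung, spleen and uterus was not analysed here.

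The rule excluded any overlap with a peak of the other 4 organs. Beyond that, a peak of such an organ lay within 1000 bp of 344 regions (11.2%) and within 100 bp of 5. The closest case inside the rule was chr19:48262767-48263473, 39 bp from the nearest such peak, at levels of 2.26, 6.68 and 4.47 CPM in colon, kidney and male liver, where CPM is the counts of a region per 1000000 counts of the kept barcodes of its library. Just outside the rule, chr1:157375846-157376404 was dropped for an overlap of 1 bp with a lung peak, at 3.61, 1.37 and 3.13 CPM. Coordinates are those of the deposited peaks, 1-based. The study's methods name the build macFas6 for its single-cell RNA data, but the sources used here gave no build for the peaks.

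Since the regions were built from overlapping peaks, the position of the peaks within them is a description. In 2945 regions (95.6%) each library had a single peak, and in 2817 of these (95.7%) all 3 peaks had a stretch in common, with a median length of 330 bp. The centres of the 3 peaks spread over a median of 88.0 bp. The merged regions had a median width of 725 bp (quartiles 488 and 1211), against 520 bp over all regions and 2018 bp for those called in all 7 organs.

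The female liver, which had no part in the selection, had a peak in 2062 of the 3081 regions (66.9%, exact binomial 95% interval 65.2 to 68.6). Its peak list was the longest of the 8 libraries, at 165942 peaks, although only 728 barcodes were kept. In these barcodes, 1788 of the 3081 regions (58.0%) had a female liver count, so some of the supporting peaks were empty. Over all 245443 regions the share was 42.6%. The share was also above that of the regions called in only 2 of the 3 organs, at 55.3% for colon and male liver, 49.9% for kidney and male liver and 16.4% for colon and kidney. It was lower than the 88.5% of colon, lung and spleen, a set without the male liver, and below the 70.9% of all regions with a peak in the male liver and exactly 2 other organs. Intervals here and below cover counting error only.

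Support by the female liver followed the level in the male liver. Ordered by that level and cut into 4 groups of equal size, the regions had a female liver peak in 43.8%, 58.2%, 71.9% and 93.8%, from the lowest group (up to 1.77 CPM) to the highest (8.87 or more). Regions with a female liver peak had a median male liver level of 5.35 CPM, against 2.01 for those without one. In colon the corresponding medians were close, at 1.89 and 1.59, and in kidney they were 4.12 and 3.02.

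The regions took a smaller part of the accessible signal in colon than in kidney and liver of the male. They received 0.924% of the counts in colon (exact Poisson 95% interval 0.921 to 0.926), 2.25% in kidney (2.25 to 2.26), 2.48% in the male liver (2.48 to 2.49) and 0.722% in the female liver (0.706 to 0.739). They made up 2.96% of the regions called in colon, 3.03% in kidney and 2.89% in male liver. Of the single peaks of the female liver, 1.36% overlapped them. By length, they made up 1.79% of the peak bases in colon, 2.52% in kidney, 2.65% in male liver and 1.28% in female liver. The share in the female liver was below that in the male liver.

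The level of a region had a median of 1.79 CPM in colon, 3.63 in kidney and 3.52 in the male liver. All regions called in colon had a median of 3.18, those called in kidney 3.68 and those called in male liver 3.22, so the selected regions lay below this value in colon and near it in the other organs. Other regions called in few organs were as low in colon, with medians of 2.01 CPM for colon and kidney, 1.75 for colon and male liver and 1.65 for colon alone, while those called in all 7 organs had 21. Kidney was the highest library in 1342 regions (43.6%), male liver in 1329 (43.1%) and colon in 410 (13.3%). These shares were not taken over the 39476 regions called in all 3, so they have no background here. A peak could be almost empty, since 13 of the regions had no count in kept barcodes of colon, 16 none in kidney and 1 none in male liver.

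Levels differed by 2-fold or more in many regions. Kidney was at least 2-fold above colon in 51.4% of the selected regions, against 28.3% of all regions called in both, and male liver was at least 2-fold above colon in 50.7%, against 25.9%. The reverse held less often, with colon at least 2-fold above kidney in 11.8% (all regions 20.5%) and above male liver in 12.9% (all regions 26.1%). Between kidney and male liver the selected regions were near the background, with kidney at least 2-fold higher in 24.8% (all regions 20.8%) and male liver in 22.7% (all regions 18.5%).

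The levels rose and fell together only loosely. Over the 3081 regions, Spearman's rho was 0.29 between colon and kidney, 0.24 between colon and male liver and 0.44 between kidney and male liver. Over all regions called in both libraries, the same values were 0.58, 0.52 and 0.65. Regions are not independent replicates, and their levels share the width of the peak, with rho between level and peak width of 0.94 to 0.96 in the 3 libraries.

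**Figure D2:**
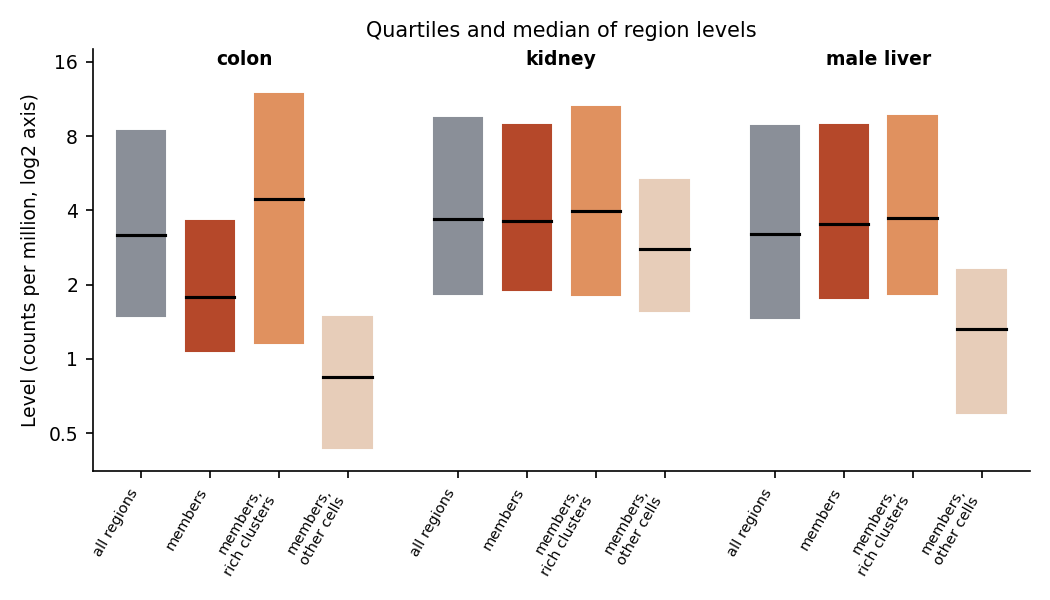
Level of regions in CPM on a log2 axis; boxes span the quartiles and the black line is the median, for all regions called in a library (grey), for the 3081 selected regions in the whole library (red), in the clusters rich in them (orange) and in the other cells (light). The median in colon was 1.79 in the whole library and 4.44 in its rich clusters.

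The 10 regions with the highest lowest level across the 3 libraries show what strong use in all of them looked like. At their head, chr7:136749623-136753429 reached 31.7 CPM in colon, 37.5 in kidney and 50 in the male liver, with a count in 9.92%, 7.32% and 16.1% of barcodes. The region chr1:191797817-191798987 was the most even of these, at 15.3 in colon, 21.1 in kidney and 18.5 in male liver. At chr5:65489044-65498242 the male liver peak spanned all 9199 bp and reached 88.4, above 62.3 in kidney and 18.4 in colon. All 10 had a female liver peak, at 3.54 to 15.2 CPM, and these rested on 7 to 30 counts.

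Other regions met the rule although a single organ dominated. The 5 regions highest in kidney relative to the others were led by chr20:70099124-70100165, at 40.3 CPM in kidney, 0.731 in colon and 1.52 in male liver. The 5 leading in colon were led by chr7:46307730-46309255, at 20.2 in colon, 1.39 in kidney and 1.42 in male liver. None of these 5 colon-led regions had a count in the female liver. Of the 5 kidney-led regions, chr17:4129568-4131122 had 2 female liver counts and the others none.

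The male liver regions of this kind were wider and had higher levels. A level is summed over the whole peak and not taken per kb, so the width enters it. At chr3:42938183-42976560, the male liver peak covered 38378 bp and reached 599 CPM, with a count in 59.2% of barcodes, while colon and kidney peaks inside it were 866 and 776 bp long in sum and reached 3.36 and 5.78. The female liver reached 187 there, from 369 counts. At chr10:58926068-58984164, the widest region at 58097 bp, male liver reached 365, kidney 16.4, colon 9.35 and the female liver 13.6. In all, 10 regions were wider than 10000 bp, and the 3 widest held 5.28% of all counts of the male liver in the selected regions. Without the regions wider than 10000 bp the male liver share of counts was 2.22% in place of 2.48%.

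To see which cells used the regions, the cells of colon, kidney and both livers were clustered with the selected regions left out. Likely doublets, droplets with more than 1 cell, had been removed. Clusters whose share of counts in the regions lay above the midpoint of the highest and the lowest cluster are called rich. This definition was chosen after the data were seen. The rich clusters were picked on odd-numbered chromosomes and their excess was measured on even-numbered ones, and the reverse, and both gave the same clusters.

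In colon, 3 of 20 clusters carried the regions. Clusters 2, 6 and 7, with 2617 cells (24.1%), put 2.99%, 3.02% and 2.42% of their counts into them, while the other 17 ranged from 0.220% to 1.35%. Together the rich clusters stood at 2.87% and the other cells at 0.379%, which is 7.59-fold. Chosen on odd and measured on even chromosomes the ratio was 7.25 (95% interval 7.18 to 7.32), and in reverse 8.06. These clusters held 21.8% of all colon counts and 67.9% of those in the regions.

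In the male liver, 5 of 10 clusters were rich, with 8129 cells (77.3%). Clusters 1, 2, 3 and 4 lay at 2.82%, 2.67%, 2.53% and 2.58%, cluster 10, with 107 cells, at 1.98%, and the other 5 between 0.468% and 0.792%. The ratio of rich to other cells was 4.46 (4.41 from odd to even, interval 4.33 to 4.50, and 4.51 in reverse). Without the removal of doublets the odd-to-even ratio was 2.25. The rich cells were also deeper, with a median of 7593 counts against 2843 in the others, and values at equal depth follow with the single cells.

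Kidney showed a smaller contrast. Its clusters 1 and 2, with 5220 cells (59.5%), both stood at 2.65%, and the other 6 between 1.25% and 1.75%, a ratio of 1.89 (1.99 from odd to even, interval 1.96 to 2.01, and 1.82 in reverse). The lowest kidney cluster thus put more of its counts into the regions than 16 of the 17 other colon clusters. Depth went the same way as in male liver, with medians of 4164 and 2857 counts.

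The female liver again provided a library outside the selection. Its cluster 2, with 173 of 723 cells (23.9%), stood at 2.72% (exact Poisson 95% interval 2.65 to 2.80), and the other 4 clusters between 0.240% and 0.283%. The ratio was 10.7 (interval 10.2 to 11.3), with 8.95 from odd to even chromosomes and 13.2 in reverse. The share in this cluster was close to that of the male liver's rich clusters together, 2.70%, although over the whole library the female liver had 0.722%. Each library was counted over its own peak list, so these shares are not quite the same measure. Its rich cells were shallower than its other cells, with medians of 1737 and 2187 counts.

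**Figure D3:**
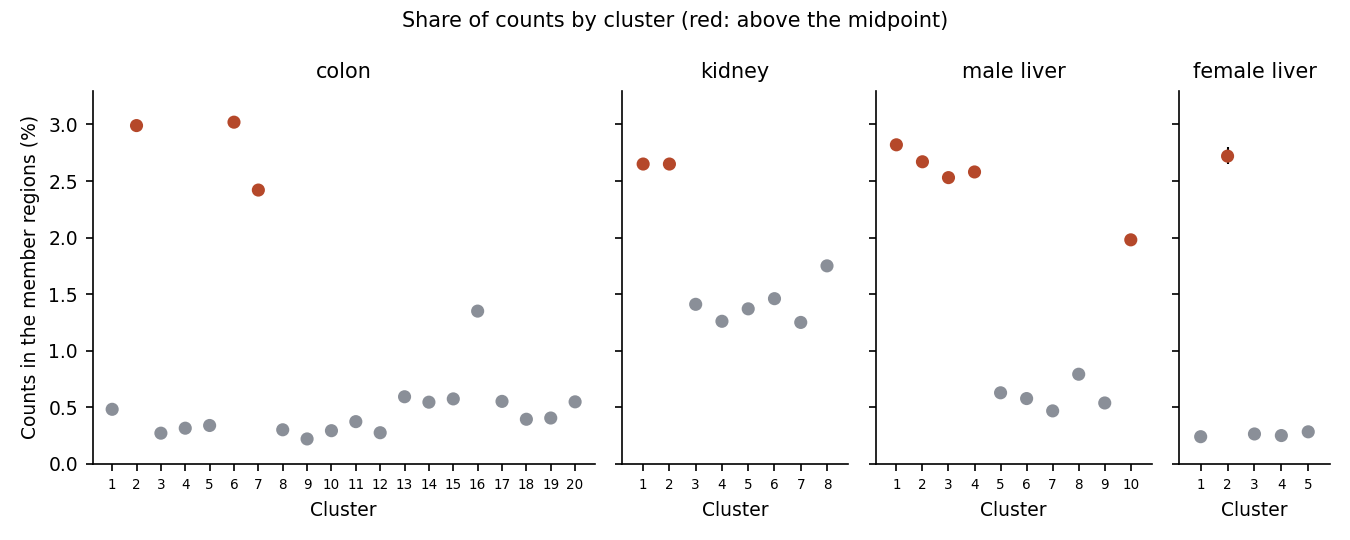
Percent of a cluster's counts that fell in the 3081 regions, for each cluster holding at least 1% of the cells of colon, kidney, male liver and female liver; bars (mostly hidden by the points) are exact Poisson 95% intervals, and red points are the clusters above the midpoint. Rich clusters reached 1.98% to 3.02% in the 4 libraries, and the other kidney clusters lay above nearly all other clusters of the remaining libraries.

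Single cells separated in the same way. When every cell was thinned to 1000 counts, so that depth was equal, a rich colon cell had a median of 28 counts in the regions (5th to 95th percentile 16 to 40) and another colon cell 4 (1 to 10), so these ranges did not overlap. In the male liver the medians were 27 (17 to 37) and 4.5 (1 to 14), and in the female liver 28 (15.6 to 39.4) and 2 (0 to 6). In kidney the ranges overlapped, at 26 (17 to 37) and 13 (6 to 24). Unthinned, the median shares per cell were 2.82% and 0.371% in colon, 2.69% and 0.445% in male liver, 2.69% and 0.237% in female liver, and 2.64% and 1.29% in kidney. The median of a rich cell was thus 26 to 28 counts per 1000 in all 4 libraries, each counted over its own peak list and in clusters picked for this share.

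The contrast can be set beside the regions shared by 2 of the 3 organs. In colon the regions called with kidney alone were 6.19-fold higher in the same rich clusters, and those called with male liver alone 6.37-fold, both below 7.59. Regions of colon and spleen were at 0.209-fold there and those of male liver and spleen at 0.437-fold in the rich male liver clusters, but those of kidney and spleen were higher in the rich kidney clusters, at 1.40-fold. Regions called in all 7 organs were at 0.836-fold in colon, 0.822 in kidney and 0.724 in male liver. In male liver, the regions shared with kidney alone were at 4.24-fold and those shared with colon alone at 3.77-fold, next to 4.46. In kidney the values were 1.88 for regions shared with male liver alone and 1.33 for those shared with colon alone, next to 1.89. In the female liver, cluster 2 was 16.6-fold higher in the kidney and male liver regions and 7.07-fold in the colon and male liver regions, on either side of 10.7, and at 0.646-fold in the colon and kidney regions. Regions of male liver alone were at 9.45-fold in this cluster and at 3.78-fold in the rich male liver clusters. Those of colon alone were at 3.57-fold in the rich colon clusters, and those of kidney alone at 1.51-fold in the rich kidney clusters. As the rich clusters had been picked with the 3081 regions, such an order describes these clusters only.

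Across clusters, the share in the regions ran against the share in regions of the same organ and spleen alone in colon, with Spearman's rho of -0.79 over 20 clusters. In the male liver rho was -0.25 over 10 clusters, and -0.63 without the removal of doublets. In kidney it was 0.98 over 8 clusters. High values with other classes of regions were not special to kidney. In kidney, rho was 0.98 with regions of kidney and male liver, 0.90 with kidney alone and 0.88 with colon and kidney. In colon it was 0.95 with regions of colon and kidney, 0.94 with colon and male liver and 0.76 with colon alone. In male liver it was 0.99 or more with regions of kidney and male liver, colon and male liver, and male liver alone. With regions called in all 7 organs it was -0.98 in kidney, -0.88 in male liver and -0.11 in colon. The clusters of a library share its peak list. Depth moved with the share as well, since the rich cells were shallower than the others in colon, with a median of 6200 against 7328 counts, and deeper in kidney, with 4164 against 2857, as they were in male liver.

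The ratio of single regions is given as a description, because the clusters had been picked as rich in these regions. The odd and the even chromosomes had picked the same clusters, so each region's ratio also holds for clusters picked without it. The minimum of 20 counts was met more easily by regions high in the rich clusters, which held 67.9% of the counts in the regions in colon, 79.6% in kidney and 97.2% in male liver. Of the 2918 regions with at least 20 counts in clustered colon cells, 2052 (70.3%) were at least 2-fold higher in the rich clusters, against 32.5% of all regions of colon. In male liver the number was 2267 of 3012 (75.3%), against 48.0%, and in kidney 1271 of 2952 (43.1%), against 28.6%. For regions called in fewer of the 3 organs the share in colon was 72.6% with kidney, 70.0% with male liver and 56.9% for colon alone. In male liver it was 76.5% with kidney, 73.8% with colon and 79.7% for male liver alone, and in kidney 47.5% with male liver, 42.7% with colon and 49.6% for kidney alone. The shares of the 3081 lay between those of these classes. The median ratio was 9.55 in colon, 4 in male liver and 1.75 in kidney, where over all regions it was 0.660, 1.84 and 1.09. In colon it was 11.1 for regions shared with kidney, 10.8 with male liver and 7.56 for colon alone. In male liver it was 4.16 with kidney, 3.93 with colon and 4.59 for male liver alone, and in kidney 1.90 with male liver, 1.64 with colon and 1.99 for kidney alone, so the medians of these classes too lay on either side. A further 361 regions in colon (12.4%, against 43.7% of all) were at least 2-fold lower in the rich clusters, as were 247 in kidney (8.37%, against 17.2%) and 59 in male liver (1.96%, against 19.2%).

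**Figure D4:**
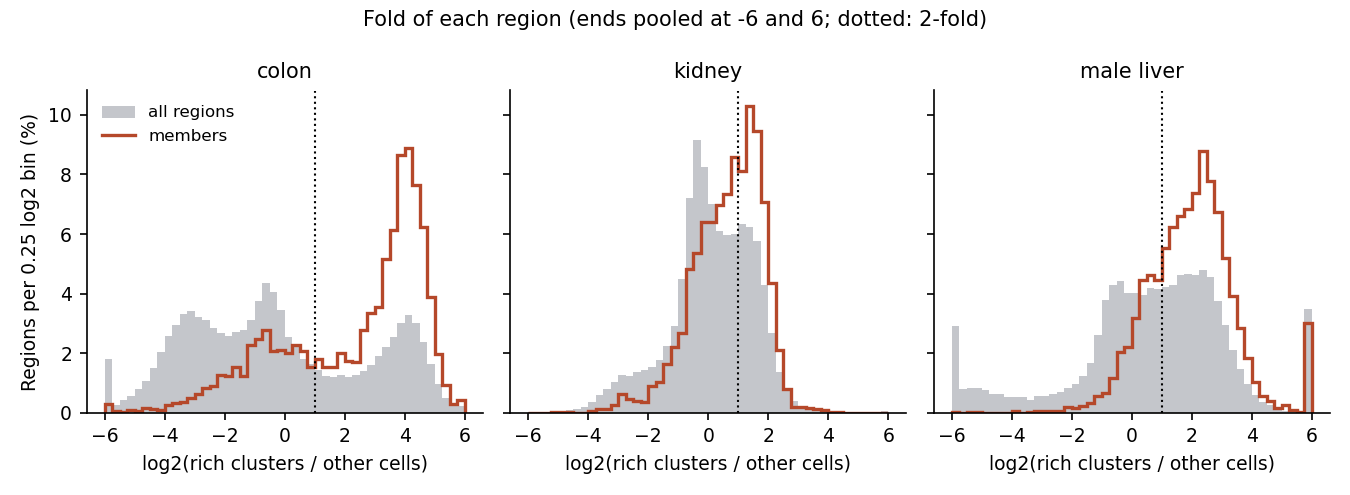
Distribution of the log2 ratio of a region's CPM in the rich clusters to that in the other cells, for all regions with at least 20 counts (grey) and for the selected regions (red line); regions beyond the ends, including those without a count on 1 side, are pooled in the outermost bins. In colon the selected regions form a main peak near a log2 ratio of 4, and a smaller share lies below 0.

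Of the 2745 regions that could be measured in all 3 libraries, 966 (35.2%) were at least 2-fold higher in the rich clusters of colon, kidney and male liver alike, against 4.78% of the 37828 regions called in the 3 libraries and measured in the same way. The picking of the clusters and the count minimum bear on this count as on those before. Another 914 (33.3%, against 11.2% of all) passed in 2 libraries, 532 (19.4%, against 20.4%) in 1 and 333 (12.1%, against 63.7%) in none. Colon and male liver together were passed by 1672 regions (60.9%), against 12.9% of all. These backgrounds include the regions called in all 7 organs. Of those, 13.0% were at least 2-fold higher in the rich clusters of colon, 2.67% in kidney and 7.67% in male liver. The part of these regions in the low backgrounds was not tested.

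Female liver counts had no part in forming these groups, although its cluster 2 had been picked with all 3081 regions. The 2052 regions higher in the rich colon clusters were together 18.2-fold higher in female liver cluster 2 (95% interval 17.0 to 19.6). The 505 regions within 2-fold in colon were 2.92-fold higher there (2.55 to 3.36), and the 361 at least 2-fold lower in colon 3.69-fold (3.20 to 4.25). The 163 with fewer than 20 counts in colon stood at 6.20 (4.65 to 8.38). The 966 regions that passed in all 3 libraries were at 23.5 (21.3 to 25.9), whereas the 333 that passed in none were at 0.890 (0.699 to 1.11), an interval that includes no difference. A female liver peak was present in 73.1% of the 966 and 69.4% of the 333, and in 55.2% of the 163 with few colon counts.

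In male liver the 2052 colon-high regions were 5.09-fold higher in the rich clusters, the 505 were 2.55-fold, the 361 were 3.22-fold and the 163 were 3.50-fold. In kidney the values were 2.04, 1.25, 1.61 and 1.38. Pooled, the 361 regions that were lower in the rich colon clusters thus had ratios above 1 in the other libraries. Taken singly, 26.7% of those measured were at least 2-fold higher in the rich clusters of kidney and 54.1% in male liver, near the 28.6% and 48.0% of all regions.

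**Figure D5:**
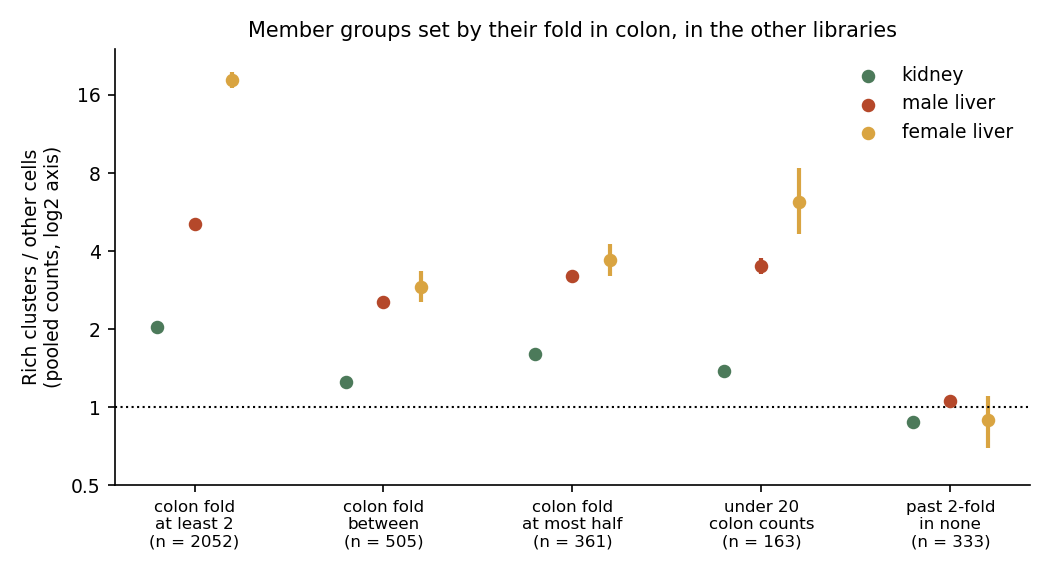
Ratio of pooled counts in rich clusters to those in other cells (log2 axis, with exact conditional 95% intervals) in kidney, male liver and female liver, for regions grouped by their own ratio in colon; the last group, regions past 2-fold in none of colon, kidney and male liver, overlaps the others. Regions high in the rich colon clusters reached 18.2 in the female liver, and those past 2-fold in none 0.890.

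In the rich clusters the median levels of the libraries were closer, while differences of 2-fold or more were slightly more frequent than over all regions. The rich clusters had been picked by their share of counts in these regions, so levels there are a description of those clusters only. With levels taken per 1000000 counts of the same cells, the median in the rich clusters was 4.44 CPM in colon, 3.96 in kidney and 3.74 in male liver, and the highest of the 3 was colon in 33.0% of regions, kidney in 33.5% and male liver in 33.5%. These medians and shares were not taken over all regions. Spearman's rho was 0.39 between colon and kidney and 0.34 between colon and male liver, and was 0.44 between kidney and male liver. In the other cells the same values were 0.03, 0.13 and 0.22. These rest on fewer counts, since the rich clusters held 67.9% of the counts in the regions in colon, 79.6% in kidney and 97.2% in male liver. The part of this in the lower values was not tested. Between the livers of both animals rho was 0.53 in whole libraries and 0.65 in rich clusters, the highest of the pairs. In the rich clusters, colon was at least 2-fold above kidney in 27.9% of the regions (all regions called in both 22.6%) and kidney above colon in 35.1% (29.9%). Colon was above male liver by as much in 29.2% (27.2%) and below it in 35.3% (28.1%), and kidney was above male liver in 26.6% (23.3%) and below it in 24.5% (19.3%).

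The strongest regions show both sides of this. At chr7:136749623-136753429, the rich colon clusters reached 134 CPM and the other colon cells 3.56 (37.6-fold), male liver 54.8 and 5.06 (10.8-fold), but kidney 39.1 and 33.3 (1.17-fold). At chr7:158102876-158105050 all 3 were higher in the rich clusters, at 35-fold in colon, 2.91-fold in kidney and 9.67-fold in male liver. The colon-led region chr10:61942264-61943757 ran the other way in colon, at 0.909 in the rich clusters and 12.4 in the other cells.

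The regions were spread over all chromosomes with some local runs. With neighbours under 50 kb apart joined, they formed 2540 runs, of which 2151 were single regions, and 930 regions (30.2%) lay in runs of 2 or more. Runs were not counted for other sets of regions, so these numbers have no background. The longest run, chr12:121622134-121751214, held 13 of the selected regions among 34 regions of any pattern. Its regions summed to 72.9 CPM in colon, 123 in kidney, 300 in male liver and 59.6 in female liver, and 8 of them had a female liver peak. The next run, chr7:157942442-158105050, held 11 among 57 and summed to 50.7, 132, 141 and 40.4. In the rich colon clusters the sums of these runs were 296 and 197.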

How the data were processed

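Per the labels, the authors processed each library with Cell Ranger ATAC 1.2.0, and the study's methods name forced cell numbers for liver, lung, colon and spleen. The deposited barcode numbers differ from these, at 12404 in colon, 13117 in lung, 20019 in spleen, 2110 in female liver and 11935 in male liver. Forced numbers can admit droplets of low quality, a point the study does not raise. The deposited counts are whole numbers of cut ends per peak and barcode, not normalized, and are even in 75.7% to 95.5% of entries, because most fragments lie with both ends in 1 peak. Peaks were called per library. The methods name macFas6 for the single-cell RNA data only, and the build of the peaks was not given in the sources used here. No gene or sequence was assigned, since the gene table at hand is of another assembly.

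Peaks of 7 libraries were merged at an overlap of at least 1 bp, and barcodes with at least 1000 counts were kept. The regions, the lists compared and the settings were chosen with earlier results of these data known. Cells were clustered without the selected regions. Peaks in at least 1% of cells were binarized and given term-frequency and inverse-document-frequency weights. They were reduced to 30 components, leaving out those correlated with depth above 0.75, and grouped by the Leiden method at resolution 0.8 on 20 nearest neighbours (leidenalg 0.10.2, igraph 0.11.9, scikit-learn 1.9.0, scipy 1.17.1, numpy 2.4.6, pandas 2.3.3, Python 3.11.15). Doublets were scored among 50 neighbours with 2 simulated doublets per cell and removed up to the squared cell number divided by 100000, which took out 1538 cells in colon, 945 in kidney, 1424 in male liver and 5 in female liver. Clusters under 1% of the cells of a library were not counted as clusters and stayed among the other cells. Intervals are exact at 95% and cover counting error only. Those on counts and on ratios of counts were computed on counts divided by 2, because cut ends come in pairs. Those on shares of regions were computed on whole numbers of regions. Merging, clustering and ratios were tested on simulated data.

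Named regions were the 10 with the highest lowest level over the 3 libraries, per library the 5 with the largest ratio to the higher of the other 2 (at least 50 counts in each), and the longest runs. Alternatives were other overlaps, peak filters, liver libraries, count minimums, binarized counts, resolutions, seeds, numbers of components, thinned cells and no doublet removal. Chosen after the data were seen were the definition of rich clusters, the alternative to it, the omission of recurring barcodes and that of regions over 10000 bp.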

Additional observations from a re-analysis of the deposited data

How the results depend on the processing

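The number of regions was 3028 with an overlap of 50% of the shorter peak and 2520 with the female liver in place of the male liver. It was 2737 without a peak of the other 4 organs within 1000 bp and 2062 with a peak in both livers. All these were within 1.5 times of 3081. With peaks in at least 1% of barcodes it was 883, and with the 50000 strongest peaks 652. The rank was 6 and 4 under these last settings. It was 2 with the overlap of 50% and with the female liver in place of the male liver. Leaving out the female liver changed neither number nor rank, as the rule does not use it. The female liver peak share was 53.2% with female liver peaks of at least 2 counts and 57.7% when counts came from all barcodes. Shares of counts were 1.08%, 2.33%, 2.5% and 0.791% in colon, kidney, male liver and female liver when binarized, and 0.919%, 2.23%, 2.22% and 0.671% without regions over 10000 bp. With at least 2000 counts per barcode they were 2.28% in kidney, 2.51% in male liver and 0.608% in female liver, and with all barcodes 0.775% in female liver. Chosen on odd and measured on even chromosomes, the ratio of rich clusters to other cells without doublet removal was 6.09 in colon, 1.81 in kidney and 2.25 in male liver; with thinned cells it was 6.31, 2.08 and 4.56. It was 1.82 in kidney when clusters at 50% or more of the highest share counted as rich, which took in 7 of 8 clusters and 95.3% of cells, 4.32 in male liver without regions over 10000 bp, and 3.84 in male liver without recurring barcodes, where cluster 10 fell under 1% of cells and so moved to the other cells. The ratio of the single highest cluster (3.57 in colon, 1.27 in kidney, 1.24 in male liver) depended on how cells were split. In colon it was 4.78 at resolution 0.4, 3.97 at resolution 1.2, 3.77 with 15 components, 3.40 without doublet removal, 4.47 with thinned cells and 4.79 without recurring barcodes. In kidney it was 1.30 with 15 components, 1.40 without doublet removal and 2.08 with thinned cells, and in male liver 1.19 at resolution 1.2, 1.2 with 15 components, 2.24 with thinned cells and 1.26 without regions over 10000 bp. Without doublet removal, rho between clusters and regions of spleen was -0.63 in colon and -0.63 in male liver. No ratio or rho changed direction, and the 966 regions past 2-fold in all 3 libraries ranged from 651 to 973. Except where stated, the cause of these changes was not tested. The female liver had 14292 counts in the regions, and intervals leave out the spread between animals. No paired analysis was possible because the groups compared share fewer than 2 replicate numbers.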

Other observations

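Male liver cluster 10, the smallest rich cluster with 107 cells and 12646 counts in the regions, had the highest rate of all male liver clusters in 584 of the 2574 regions with at least 100 counts (22.7%), against 14.7% of all male liver regions. Clusters 1 and 4 had a like or larger excess, at 25.2% against 15.6% and 14.4% against 8.96%. The levels of cluster 10 across the regions correlated with those of the rich colon clusters at a Spearman's rho of 0.34 when thinned to 10000 counts in the regions, and those of male liver clusters 1 to 4 at 0.26 to 0.29. With the rich kidney clusters the values were 0.35 for cluster 10 and 0.33 to 0.38 for clusters 1 to 4. The cell type of cluster 10 was not tested.

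The regions made up 0.759% of all regions on chromosome 19 and 1.76% on chromosome 5, the extremes over the chromosomes. They lay a median of 32194 bp from the nearest region called in all 7 organs, against 44762 bp for regions of kidney and male liver alone, 29420 bp for colon and kidney, 32872 bp for colon and male liver and 36560 bp for all regions not called in all 7. Within 1000 bp of such a region lay 2.86% of the regions, against 3.23% of all regions not called in all 7.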
